A study of Mus musculus with 10 samples.

Results

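Ctla4, Cd28, Icos, Pdcd1, Btla, Lag3, Tnfrsf4, Tnfrsf9, Cd160 and Cd6 encode surface receptors that raise or restrain the response of a T cell to its antigen. They were taken by name from the count tables, as 10 of the 24062 genes listed, and 8 of them passed the filter on low counts that 12221 genes passed (at least 1 CPM, that is reads of the gene scaled to a fixed library size, in at least 2 libraries). Tnfrsf4 and Cd6 did not pass and are described by their counts. The question put to the data was how early in T-lineage differentiation these receptors are transcribed.

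A T cell reads antigen through its T cell receptor and reads context through costimulatory and inhibitory receptors. CD28 is the main costimulator, and CTLA4 competes with it for the ligands CD80 and CD86. ICOS is a relative of CD28 that binds ICOSL, and the inhibitory receptor PD-1 (Pdcd1) binds PD-L1 (Cd274) and PD-L2 (Pdcd1lg2). BTLA and CD160 both bind HVEM (Tnfrsf14), LAG3 binds MHC class II, and OX40 (Tnfrsf4) and 4-1BB (Tnfrsf9) are TNF receptor family members that signal through TRAF adaptors. CD6 binds ALCAM. Most of these genes are known for their induction after a mature T cell is activated. CD160 and LAG3 are also known from natural killer cells and innate lymphoid cells.

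RNA was sequenced from 10 libraries of cells grown from LSK cells (Lin-SCA1+KIT+ marrow progenitors of C57BL/6J mice). Every culture received SCF, FLT3L, IL-6 and IL-11. For the no Notch control (4 libraries), the cells grew on immobilized human IgG until day 14. The DN1, DN2a and DN2b libraries, 2 of each, came from cells grown on the Notch ligand Delta1 fused to IgG, at its high density, and sorted as the double negative stages of early thymocytes. DN1 cells were KIT++CD44+CD25- and came from cultures without IL-7. DN2a cells (KIT++CD44+CD25+) and DN2b cells (KIT+CD44loCD25+) came from cultures with IL-7, so that stage and IL-7 cannot be told apart between DN1 and either DN2 stage. The 2 DN libraries of a stage are called rep 1 (the earlier label date) and rep 2 (the later), and the control libraries D1, D2, R1 and R2 as in their labels, which do not explain the letters. The earlier and the later libraries come from different years, and the DN2a and DN2b libraries of a year share their date. The control was a bulk culture and the DN populations were sorted. The control and DN libraries thus differ by sorting as well as by Notch ligand. IL-7 was added at day 14, so the DN2 libraries also differ from the control by IL-7 and by culture time. The control was a separate culture and not a stage before DN1. Differences from it compare cultures and not steps of differentiation. In bulk RNA, fewer cells that express a gene and less RNA per cell cannot be told apart.

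Between 12354635 and 35367925 reads per library were assigned to genes, and 3 counts, taken as the detection floor, corresponded to between 0.088 and 0.239 CPM. The markers used for sorting followed the labels. Il2ra (CD25) had a mean of 1.18 CPM without Notch ligand, and the DN1, DN2a and DN2b means were 21.0, 1400 and 1950 CPM, and Cd44 fell from 138 CPM in DN1 to 12.2 in DN2b. The 10 genes listed as markers of neutrophils, monocytes and macrophages summed to between 25800 and 76500 CPM in the control, 2450 in DN1 rep 1, 120 in DN1 rep 2 and between 3.82 and 11.6 in the DN2 libraries. The 12 markers of natural killer and innate lymphoid cells summed to between 22.6 and 203 CPM in the control, between 621 and 2500 in DN1 and between 1540 and 4480 in the DN2 libraries. Gzma and Gzmb made up most of the sums in the DN libraries, but were at most 0.56 and 1.01 CPM in the control, where Nkg7 had the highest mean (63.8 CPM, up to 185 in D2). Ncr1 was at 0 in the control and had at most 31 counts in any DN library. The 7 mast cell and basophil markers summed to 1600 CPM in DN1 rep 1 and 461 in DN1 rep 2, to between 261 and 582 in the DN2 libraries and to between 80.2 and 287 in the control. Cpa3 made up most of the DN2 sums, with means of 471 CPM in DN2a and 355 in DN2b. The other markers of this list all had lower means in both DN2 stages than in the control. The 7 mature T cell markers with a row summed to between 20.1 and 144 CPM in the control and between 12.3 and 74.9 in the DN libraries, most of it from S1pr1 and Ccr7, with at most 24 counts for Cd8a and 17 for Cd4 in any library and Cd8b1 at 0 in the control. The part of other cell types in the results was not tested.

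Promoter sequences are shown for the 4 receptors with a sequence available whose transcripts were called higher in both DN2 stages than in the control, and for Btla, which was called lower, because these genes moved strongly in the same libraries. RefSeq promoters (GRCm38.p6, 250 bases before to 50 bases after the annotated start, gene strand, 5′ to 3′) were matched for 6 of the 10 receptors. Cd28, Icos, Lag3 and Cd6 had no entry. Capitals mark matches on either strand to 5 motifs. The core bound by RBPJ, which mediates Notch signals, was searched as TGGGAA. That of GATA3 and its relatives was searched as AGATAA. The motif of RUNX factors was searched as TGTGGT. The motif of TCF1 and LEF1 was searched as CTTTGA. The core of the NFAT motif was searched as TGGAAA. For Tnfrsf9 and Cd160, which have 2 annotated starts each, the first listed is shown.
Ctla4, chr1:60908775-60909074, plus strand: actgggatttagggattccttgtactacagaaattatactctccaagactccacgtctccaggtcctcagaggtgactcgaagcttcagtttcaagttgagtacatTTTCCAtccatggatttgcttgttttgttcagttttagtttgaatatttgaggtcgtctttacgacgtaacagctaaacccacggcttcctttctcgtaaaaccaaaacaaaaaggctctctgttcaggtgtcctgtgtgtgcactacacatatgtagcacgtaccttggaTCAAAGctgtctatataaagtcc
Pdcd1, chr1:94052504-94052803, minus strand: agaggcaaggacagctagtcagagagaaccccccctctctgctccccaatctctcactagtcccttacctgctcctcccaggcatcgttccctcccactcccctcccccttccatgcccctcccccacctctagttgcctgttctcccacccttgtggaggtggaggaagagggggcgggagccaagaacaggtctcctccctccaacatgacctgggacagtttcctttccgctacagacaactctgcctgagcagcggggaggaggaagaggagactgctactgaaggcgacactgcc
Tnfrsf9, chr4:150919905-150920204, plus strand: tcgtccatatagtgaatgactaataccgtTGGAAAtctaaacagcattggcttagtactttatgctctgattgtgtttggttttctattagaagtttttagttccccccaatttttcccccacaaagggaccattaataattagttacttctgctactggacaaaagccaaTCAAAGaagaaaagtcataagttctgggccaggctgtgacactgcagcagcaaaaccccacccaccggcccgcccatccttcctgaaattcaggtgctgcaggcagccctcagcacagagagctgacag
Cd160, chr3:96829302-96829601, minus strand: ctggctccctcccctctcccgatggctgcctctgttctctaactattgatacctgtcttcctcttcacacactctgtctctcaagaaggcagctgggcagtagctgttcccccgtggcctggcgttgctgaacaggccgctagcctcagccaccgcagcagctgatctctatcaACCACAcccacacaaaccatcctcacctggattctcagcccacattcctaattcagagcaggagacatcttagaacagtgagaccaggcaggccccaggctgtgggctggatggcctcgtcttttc
Btla, chr16:45224087-45224386, plus strand: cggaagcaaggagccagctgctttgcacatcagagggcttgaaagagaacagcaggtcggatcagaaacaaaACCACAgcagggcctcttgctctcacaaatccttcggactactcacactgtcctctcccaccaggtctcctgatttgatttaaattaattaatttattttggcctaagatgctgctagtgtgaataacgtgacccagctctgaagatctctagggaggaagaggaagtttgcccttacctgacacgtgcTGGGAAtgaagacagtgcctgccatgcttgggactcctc

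The Ctla4 and Tnfrsf9 windows each held 1 NFAT and 1 TCF1/LEF1 match, the Cd160 window 1 RUNX match, the Btla window 1 RUNX and 1 RBPJ match, and the Pdcd1 window none of the 5 motifs. At the second annotated starts, which are not shown, Tnfrsf9 had 1 RBPJ and 1 RUNX match and Cd160 had 1 RBPJ, 1 RUNX and 2 TCF1/LEF1 matches, so that the RBPJ core was found for receptors called higher and for the one called lower. Among 32851 RefSeq promoters of 27025 genes, the shares with a match were 25.6% for the RBPJ core, 11.2% for the GATA motif, 16.8% for RUNX, 16.0% for TCF1 and LEF1 and 21.4% for NFAT. These matches describe letters in the window and not bound sites. The windows differed in CpG content. The ratio of observed to expected CpG was 0.609 for Ctla4, higher than in 64.8% of promoters, and 0.19 for Pdcd1, higher than in 27.3%. It was 0.264 for the shown start of Tnfrsf9, 0.265 for that of Cd160, 0.278 for Btla and 0.438 for Tnfrsf4, against a median of 0.384 over all promoters. Of the 5 windows shown, that of Ctla4 lay above this median and the other 4 below it.

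The leading receptor was Cd28 in the control, Cd160 in DN1 and DN2a, and Ctla4 in DN2b. Levels per kilobase of exon allow receptors to be compared with each other, and summed over the 10 genes they came to 10.2 ± 3.47 CPM per kb in the 4 control libraries (mean ± SD). DN1 reached 34.3 ± 6.67, DN2a 101.0 ± 2.4 and DN2b 196.0 ± 33.2 (n = 2 each). Cd28 made up 79.0% of that sum in the control (65.1% to 91.9% across libraries). Cd160 made up 59.3% in DN1, where Lag3 held 30.1%. Cd160 still led in DN2a with 54.0%, ahead of Ctla4 with 27.6%. In DN2b, Ctla4 led with 51.8%, ahead of Cd160 with 23.5% and Tnfrsf9 with 16.3%, the last ranging from 5.74% to 26.9% between the libraries. The highest share of Cd28 in any DN library was 2.86%.

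**Figure D1:**
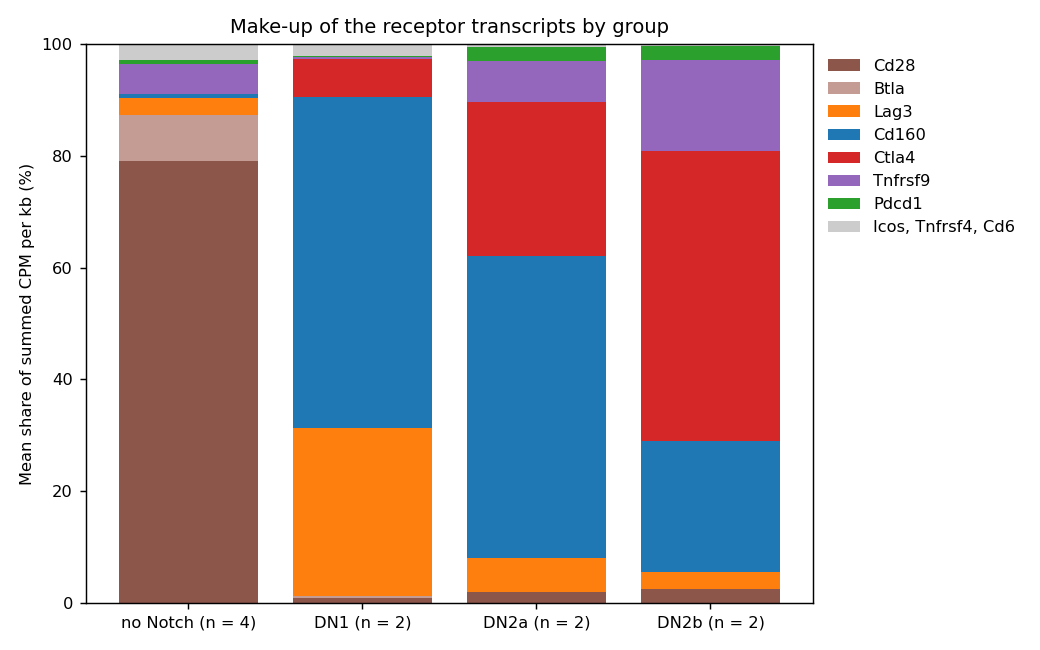
Mean share of each receptor (stacked bars, percent) in the summed CPM per kilobase of exon of the 10 receptors, for the no Notch control (n = 4) and the DN1, DN2a and DN2b stages (n = 2 each). Cd28 fills 79.0% of the control bar, Cd160 59.3% of the DN1 bar and Ctla4 51.8% of the DN2b bar.

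Against the control, DN1 had 4 receptors called higher and 2 lower, DN2a 6 higher and 2 lower, and DN2b 6 higher and 1 lower, of the 8 tested (quasi-likelihood test of edgeR, p adjusted by Benjamini-Hochberg over the 12221 genes and called under 0.05). Of all genes tested, 14.3% were called higher and 17% lower for DN1, 21.2% and 24.3% for DN2a, 19.9% and 22.5% for DN2b. The median log2 fold change (log2FC) of the 8 receptors was 3.01 for DN1, 4.57 for DN2a and 5.98 for DN2b, against medians of 0.0101, -0.0481 and -0.0471 over all genes. The 3 comparisons share the same 4 control libraries. A receptor that passed the filter through a high DN group was bound to stand above the control, so these counts describe the genes tested and not the whole set.

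Among the DN stages, fewer genes passed. DN2a over DN1 had 1 receptor called higher (Ctla4) and 0 lower, against 0.196% and 0.205% of all genes. DN2b over DN1 had 2 called higher (Ctla4 and Cd28) and 0 lower, against 1.01% and 0.892%. DESeq2 called 4 receptors in each of these comparisons, all of them higher, beside 1.01% and 2.77% of all genes called higher. At an unadjusted p under 0.05 edgeR had 5 in each, all higher, beside 3.38% and 5.43% of all genes. Pdcd1 and Tnfrsf9, which are among them, passed the filter only through the DN2 libraries. They were thus bound to stand above DN1, and these counts describe the genes tested. DN2b over DN2a had 0 receptors called by edgeR and 0 by DESeq2, and edgeR called 0% of all genes (0 higher and 0 lower) where DESeq2 called 29 (16 of them, 0.131% of all, higher). At an unadjusted p under 0.05, 2 receptors (Ctla4 and Cd28) and 335 genes passed edgeR's test in that last comparison. Both receptors were higher, as were 1.7% of all genes.

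**Figure D2:**
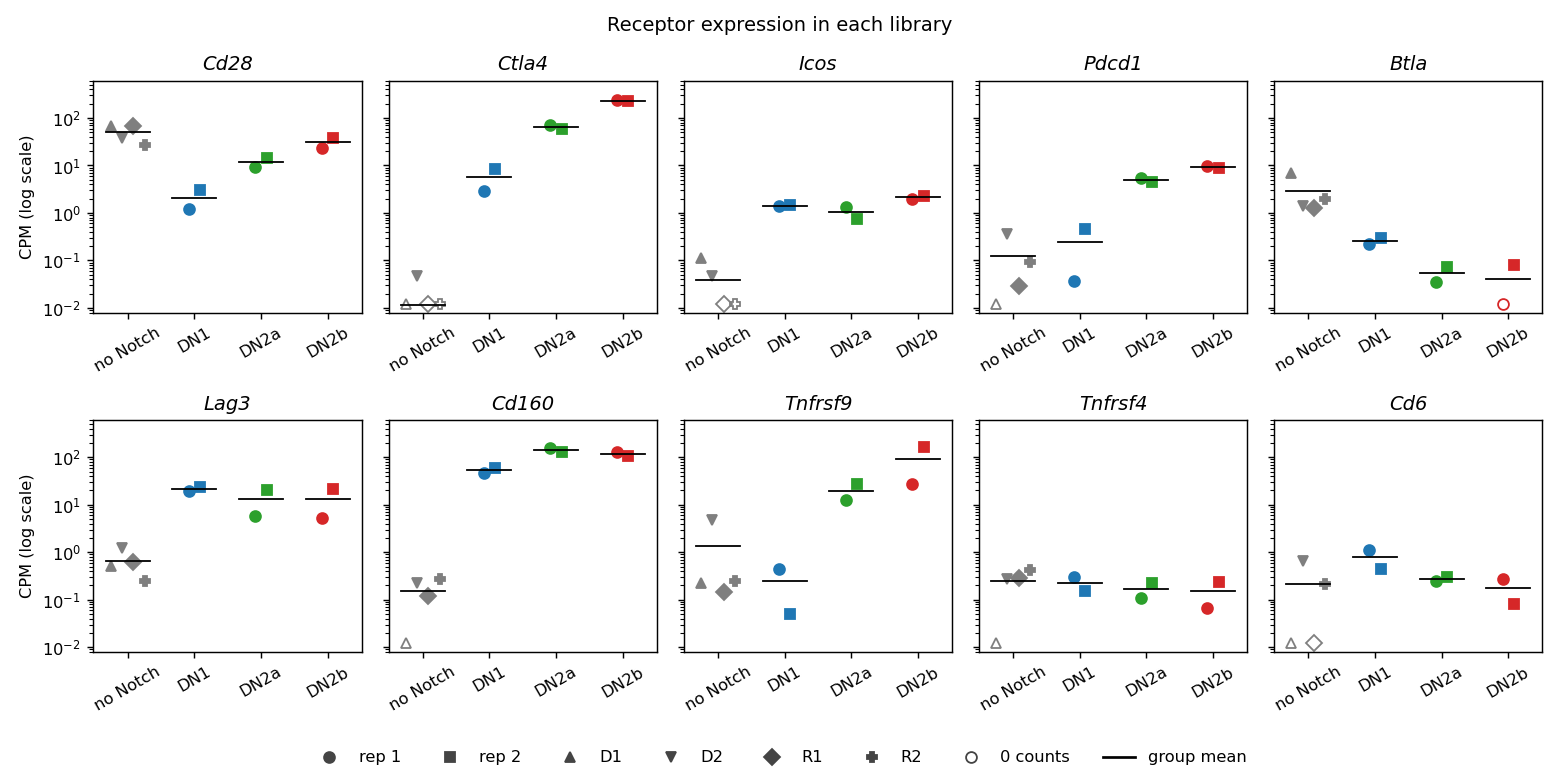
CPM of each receptor in each library (points on a log scale, 1 panel per gene; symbol shape names the library, black lines are group means, open symbols at the bottom are libraries with 0 counts). Ctla4 is at most 0.046 CPM in the control and rises through the DN stages to 230 and 236 in DN2b. Cd28 is lowest in DN1, and Tnfrsf4 and Cd6 stay at or under 0.427 and 1.11 CPM.

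Ctla4, the inhibitory relative of CD28, showed the widest range of the 10. Its levels were 0, 0.046, 0 and 0 CPM in the control libraries D1, D2, R1 and R2. DN1 held 2.85 (rep 1) and 8.47 (rep 2), DN2a 70.6 and 59.2, and DN2b 236 and 230. No library of one group overlapped with the next, and the 2 DN2b libraries lay close together (mean 233 ± 4.22 CPM, SD). The control held 1 count in all 4 libraries together, so the fold against it is given as a ratio of pooled counts with an exact 95% counting interval. That ratio was 559 in DN1 (99.3 to 22100), 7120 in DN2a (1280 to 281000) and 24900 in DN2b (4460 to 982000). The adjusted p values were 0.000124, 1.37e-05 and 1.01e-05 (edgeR). The fitted log2FC values rest on that 1 count, in D2, and on the prior count. They were 8.54, 12.07 and 13.91, and 9.97, 13.5 and 15.35 without D2, while the DN1 value was 7.58 without DN1 rep 2.

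Between stages, Ctla4 rose by a log2FC of 5.37 ± 0.57 (SE) from DN1 to DN2b (adjusted p = 0.0034, edgeR). Its rise from DN1 to DN2a was 3.53 ± 0.52 (adjusted p = 0.0380), and this call was lost with only those stages in the fit (adjusted p = 0.0783), with the DN libraries blocked by year (0.0881) or without the block (0.0611), and with any library but DN1 rep 2 left out. Without DN1 rep 1 the value was 2.94 (adjusted p = 0.107), and without DN1 rep 2 it was 4.50. From DN2a to DN2b the log2FC was 1.85 ± 0.49 (unadjusted p = 0.00389, adjusted p = 1.0), and the increase was 3.35-fold between the rep 1 libraries and 3.89-fold between the rep 2 libraries. Without DN1 rep 1 or DN1 rep 2 the DN1 to DN2b rise was 4.78 or 6.35.

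Cd28, the main costimulator, went the other way between the control and DN1. Control levels were 67.3, 38.3, 69.1 and 26.4 CPM (D1, D2, R1, R2). DN1 had 1.19 and 2.99 CPM, DN2a 9.41 and 14.2, and DN2b 23.0 and 38.5. DN1 and DN2a lay below every control library, while DN2b overlapped with the control. Cd28 was lower than the control in DN1 with a log2FC of -4.60 ± 0.63 (adjusted p = 0.00127, edgeR) and in DN2a with -2.09 ± 0.54 (adjusted p = 0.0118), a call lost without DN2a rep 1 (-1.82, adjusted p = 0.108). In DN2b the value was -0.71 ± 0.50 (adjusted p = 0.269). Without DN1 rep 2 the DN1 value was -5.39.

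From DN1 to DN2b Cd28 rose by 3.89 ± 0.63 (adjusted p = 0.0205, edgeR), by 19.4-fold between the rep 1 libraries and 12.9-fold between the rep 2 libraries. That call was lost without DN1 rep 1 (3.36, adjusted p = 0.130), without DN2b rep 2 (3.47, adjusted p = 0.0861) and with only DN1 and DN2b in the fit (adjusted p = 0.0732). With the year as a block it stayed called (3.95 ± 0.32, adjusted p = 0.0153), and without DN1 rep 2 the value was 4.69. From DN1 to DN2a the log2FC was 2.50 ± 0.60 (adjusted p = 0.155, edgeR), which DESeq2 called (adjusted p = 0.00324). The control libraries, where Cd28 was high, are also those with the high myeloid marker sums given above, and the 8 dendritic cell markers summed there to between 210 and 992 CPM against at most 121 in any DN library.

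Icos, the inducible costimulator, was low but present in every DN library. The control libraries held 0.112, 0.046, 0 and 0 CPM (D1, D2, R1, R2). DN1 held 1.37 and 1.45 (rep 1, rep 2), DN2a 1.32 and 0.742 and DN2b 1.94 and 2.31. Every DN library was above every control library. The control held 3 counts in all, and the pooled ratio was 49.7 in DN1 (exact 95% counting interval 16.3 to 247), 40.3 in DN2a (13.0 to 202) and 74.7 in DN2b (24.3 to 373), with adjusted p values of 0.00572, 0.00529 and 0.0024 (edgeR). Leaving out D1, which held 2 of those 3 counts, moved the fitted log2FC from 5.24, 4.80 and 5.83 to 6.33, 5.89 and 6.92. Among the DN stages the libraries did not overlap, with DN2b above DN1 above DN2a, and DN2b was 1.41 and 1.6 times DN1 between the rep 1 and between the rep 2 libraries. None of these differences passed the test, with log2FC values between -0.43 and 1.02 and SE of 1.03 to 1.04.

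Cd28, Ctla4 and Icos lie next to each other on mouse chromosome 1 (mm10), Cd28 at chr1:60716800-60773359, Ctla4 at chr1:60887000-60915832 and Icos at chr1:60977927-61000320 in GENCODE vM21, all on the plus strand. In RefSeq, 135665 bases separate Cd28 from Ctla4 and 44940 bases separate Ctla4 from Icos. Per kilobase of exon, Cd28 stood at 8.21 CPM per kb without Notch ligand, and at 0.341, 1.93 and 5.02 across DN1, DN2a and DN2b. Ctla4 was at 0.00495, 2.43, 27.9 and 100 CPM per kb, and Icos at 0.0115, 0.41, 0.301 and 0.618. Cd28 was the highest of the 3 neighbours in the control, where Ctla4 and Icos were both at the floor, and Ctla4 was the highest in DN1 and in both DN2 stages. Raph1, the protein-coding gene on the other side of Cd28, was at 25.5 ± 11.5 CPM in the control and 1.34 ± 0.999 in DN1 (log2FC -4.27 ± 0.94, adjusted p = 0.00986, edgeR), and it remained lower than the control in DN2b (-3.22 ± 0.89, adjusted p = 0.0177).

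**Figure D3:**
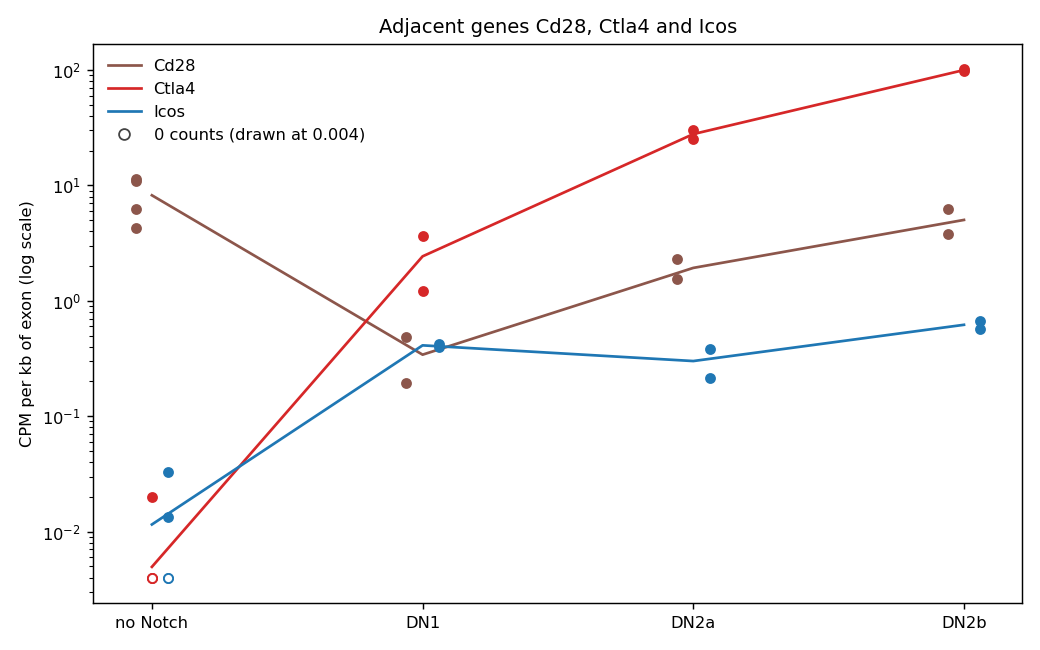
Levels of the adjacent genes Cd28, Ctla4 and Icos in CPM per kilobase of exon (log scale; points are libraries, lines join group means, open points are libraries with 0 counts). Cd28 is at 8.21 in the control, 0.341 in DN1 and 5.02 in DN2b. Ctla4 is at 0.00495 in the control and 100 in DN2b.

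Pdcd1, the gene of PD-1, was at the level of a few counts in the control and DN1 and appeared in the DN2 stages. The control libraries held 0, 0.369, 0.029 and 0.092 CPM (D1, D2, R1, R2). DN1 held 0.037 and 0.449 (rep 1, rep 2), DN2a 5.55 and 4.38 and DN2b 9.61 and 8.75. Both DN2 stages were above every control and DN1 library, and DN1 overlapped with the control. The log2FC against the control was 5.32 ± 1.06 in DN2a (adjusted p = 0.00398, edgeR), 6.20 ± 1.09 in DN2b (adjusted p = 0.00228) and 0.94 ± 1.16 in DN1 (adjusted p = 0.568). Without D2, the control library with the most Pdcd1, the DN2a and DN2b values were 6.61 and 7.50. Against DN1, where both libraries together held 10 counts, the log2FC was 4.38 ± 1.34 in DN2a (adjusted p = 0.265) and 5.26 ± 1.39 in DN2b (adjusted p = 0.112) by edgeR. DESeq2 gave 4.39 and 5.30 and called both (adjusted p = 0.0167 and 0.000938).

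Tnfrsf9, the gene of 4-1BB, rose late and varied most between replicates. The control had 0.224, 4.84, 0.147 and 0.244 CPM (D1, D2, R1, R2), DN1 0.445 and 0.050, DN2a 12.3 and 27.0, and DN2b 27.0 and 161. The DN2 libraries were all above the control and DN1, and the 2 DN2b libraries differed more from each other than the DN2a libraries did. DN2b rep 2, the library with 161 CPM, also held more of several activation-induced genes than DN2b rep 1, with Egr1 at 61.4 against 4.34 CPM, Egr3 at 13.7 against 0.133 and Nr4a1 at 13 against 2.6. Egr1 was also high, at 84.1 CPM, in DN1 rep 1, where Tnfrsf9 was at 0.445 CPM, and averaged 38.4 CPM in the control. Their part in the Tnfrsf9 level was not tested. The log2FC was 3.87 ± 1.27 in DN2a (adjusted p = 0.0331, edgeR) and 6.13 ± 1.35 in DN2b (adjusted p = 0.00669) against the control. Without control library D2 these values were 6.56 and 8.84. The DN2a call was lost without D1, R1 or R2 (adjusted p = 0.0646, 0.0652 and 0.0675), without DN2a rep 1 (0.073) or DN2a rep 2 (0.146, log2FC 3.20) and with D1 and D2 as the only controls (0.140). The DN2b call was lost without DN2b rep 2 (4.33, adjusted p = 0.0565), and without DN2b rep 1 the value was 6.91.

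Against DN1, Tnfrsf9 had a log2FC of 8.45 ± 2.08 in DN2b (adjusted p = 0.0906, edgeR) and 6.19 ± 1.93 in DN2a (adjusted p = 0.272). DN2b over DN1 was called without library D2 (adjusted p = 0.0137), without the filter on low counts (0.0453) and with the 6 DN libraries alone, with the year as a replicate block (0.0418) or without it (0.0304). DESeq2 gave no adjusted p for this gene in any of the 6 comparisons. DN1 over control was -2.32 ± 1.68 (adjusted p = 0.320), a sign that turned to 0.37 without D2. D2 was also the control library with the highest natural killer and innate lymphoid (203 CPM), dendritic cell (992 CPM) and myeloid (76500 CPM) marker sums.

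Tnfrsf4, the gene of OX40, had at most 14 counts in any library and at most 0.427 CPM, with group means between 0.153 CPM in DN2b and 0.249 in the control, so a difference was not detectable at this depth. Its neighbour Tnfrsf18, the gene of the related receptor GITR, lies 9708 bases away and was at 2.33 ± 1.23 CPM without Notch ligand, and the DN1, DN2a and DN2b means were 8.9 ± 0.19, 25.0 ± 9.1 and 33.5 ± 10.1 CPM. Tnfrsf18 was higher than the control in each stage, with a log2FC of 1.93 ± 0.44 (adjusted p = 0.0112), 3.42 ± 0.45 (adjusted p = 0.000586) and 3.85 ± 0.45 (adjusted p = 0.000373, edgeR).

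Cd160, a receptor for HVEM, was the member most clearly on from DN1 onward. The control libraries held 0, 0.230, 0.117 and 0.275 CPM (D1, D2, R1, R2). DN1 held 46.9 and 60.5 (rep 1, rep 2), DN2a 158 and 130 and DN2b 131 and 106. Every DN library was far above every control library, and DN1 lay below both DN2 stages, which overlapped with each other. The log2FC against the control was 8.29 ± 0.49 in DN1, 9.71 ± 0.51 in DN2a and 9.44 ± 0.51 in DN2b (adjusted p = 5.42e-05, 1.37e-05 and 1.26e-05, edgeR), and these ranked 24, 24 and 42 from the highest among 12221 genes. Against DN1, the log2FC was 1.42 ± 0.46 in DN2a (adjusted p = 0.289) and 1.14 ± 0.46 in DN2b (adjusted p = 0.302) by edgeR, while DESeq2 called both (adjusted p = 0.00286 and 0.019). Cd160 overlaps Pdzk1 on the opposite strand, and Pdzk1 averaged 2.35 CPM without Notch ligand, 1.95 at DN1, 2.36 at DN2a and 4.73 at DN2b. The same DN libraries held the natural killer and innate lymphoid marker sums of 621 to 4480 CPM given above, mostly from Gzma and Gzmb. The rest of that list was mixed. Klrd1 had DN group means of 2.41 to 3.86 CPM against 0.381 in the control, and Ncr1 of 0.037 to 0.555 CPM. Klrk1 went the other way, with 1.15 CPM in the control and at most 0.259 in a DN mean. Il1rl1 was called higher in DN1 than in the control and lower in both DN2 stages (edgeR).

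Btla, the inhibitory receptor for the same ligand, was the reverse of Cd160. The control libraries held 6.94, 1.38, 1.29 and 1.98 CPM (D1, D2, R1, R2). DN1 held 0.222 and 0.299 (rep 1, rep 2), DN2a 0.036 and 0.074 and DN2b 0 and 0.080. No DN library reached the lowest control library, and the DN2 stages were at the floor. The log2FC in DN1 was -3.45 ± 1.06 (adjusted p = 0.0350, edgeR), and this call was lost without D1 (-2.56, adjusted p = 0.0636), without either DN1 library (adjusted p = 0.138 and 0.124), without either DN2a library (0.0512 and 0.0509), and with D1 and D2 (0.0556) or R1 and R2 (0.0878) as the only controls. With 2 counts in DN2a and 1 in DN2b, the pooled ratio of control over DN2a was 51.2 (exact 95% counting interval 14 to 425) and over DN2b 68.1 (12.1 to 2700), with adjusted p values of 0.00674 and 0.00733. These calls were lost without DN2a rep 1 (adjusted p = 0.0746) and without DN2b rep 1 (0.0602, fitted log2FC -5.08), and without DN2b rep 2 the DN2b value was -9.07. Without D1 the fitted values were -4.80 in DN2a and -5.20 in DN2b. The neighbour Cd200 was at 3.87 ± 5.01 CPM in the control and at most 0.0997 in the mean of DN1.

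Lag3, the inhibitory receptor for MHC class II, reached its level in DN1. The control libraries held 0.504, 1.20, 0.616 and 0.244 CPM (D1, D2, R1, R2). DN1 held 19.9 and 23.4 (rep 1, rep 2), DN2a 5.83 and 20.1 and DN2b 5.14 and 21.2. Every DN library was above every control library, and in both DN2 stages rep 1 was the lower. The log2FC against the control was 5.08 ± 0.74 in DN1 (adjusted p = 0.00167, edgeR), 4.34 ± 0.73 in DN2a (adjusted p = 0.00178) and 4.37 ± 0.73 in DN2b (adjusted p = 0.00185). Leaving out rep 1 or rep 2 moved the DN2a value to 4.97 or 3.19 and the DN2b value to 5.06 or 3.01. Between the rep 1 libraries, Lag3 was 3.87 times higher in DN1 than in DN2b, and between the rep 2 libraries 1.1 times higher, with a pooled log2FC of DN2b over DN1 of -0.72 ± 0.82 (adjusted p = 0.760). Cd4, the neighbour of Lag3 and its structural relative, had group means of at most 0.545 CPM.

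Cd6, a scavenger receptor that binds ALCAM, had at most 30 counts in any library. The control libraries held 0, 0.645, 0 and 0.214 CPM, and DN1 1.11 and 0.449, DN2a 0.251 and 0.297 and DN2b 0.267 and 0.080, with every group overlapping the control. Cd5, the next gene and a receptor of the same family, was at 0.489 ± 0.259 CPM without Notch ligand, and the DN1, DN2a and DN2b means were 2.13 ± 0.0221, 7.77 ± 0.768 and 5.54 ± 0.853 CPM. Cd5 was higher than the control in all 3 stages, with adjusted p = 0.0118 in DN1, a log2FC of 3.99 ± 0.50 in DN2a (adjusted p = 0.000486) and 3.50 ± 0.49 in DN2b (adjusted p = 0.000846, edgeR). On the other side of Cd6, the peptide transporter gene Slc15a3 was at 229 ± 87.1 CPM in the control and 1.0 ± 0.0589 in DN1 (-7.83 ± 0.52, adjusted p = 5.63e-05, edgeR).

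**Figure D4:**
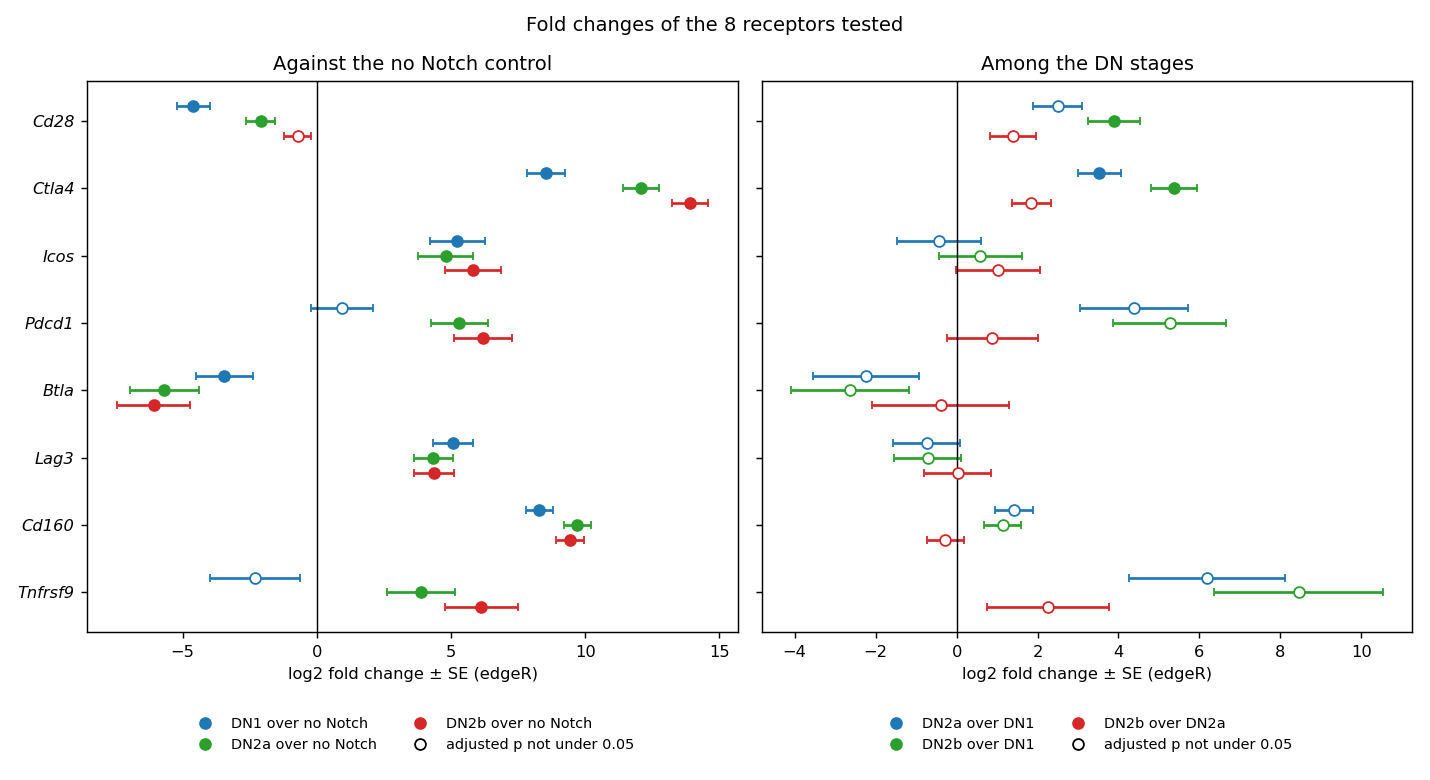
Fitted log2 fold changes with their SE (edgeR, 10 libraries) for the 8 receptors tested, against the no Notch control (left) and among the DN stages (right). Filled points have an adjusted p under 0.05; the values for Ctla4, Icos and Btla against or in groups near 0 counts depend on the prior count, and only Ctla4 and Cd28 are filled on the right.

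Most of the ligands of these receptors were called lower in the DN stages. Of 12 ligand genes, 11 were tested, and 1 was called higher and 8 lower in DN1 than in the control, and 0 higher and 8 lower in DN2a and in DN2b. At an unadjusted p under 0.05, 0 were higher in either DN2 stage, and DESeq2 also called 0 higher there. Over all genes, 17%, 24.3% and 22.5% were called lower in DN1, DN2a and DN2b. All 10 myeloid markers were called lower in each stage, as were 3, 3 and 5 of the 5 dendritic cell markers tested, of which 2, H2-Aa and H2-Ab1, are also counted among the ligands. Some alternatives called fewer of the dendritic cell markers lower in each stage, and fewer of the myeloid markers in DN1. The part of these cells in the ligand levels was not tested. Cd86, a shared ligand of CD28 and CTLA4, was at 39.4 ± 20.7 CPM in the control, 1.28 ± 0.236 in DN1 (log2FC -4.94 ± 0.76, adjusted p = 0.00275, edgeR), 0.0742 ± 0.105 in DN2a and 0 in both DN2b libraries. Cd80, the other, was at 6.75 ± 1.89 CPM in the control and 0.423 ± 0.389 in DN1 (-4.01 ± 0.75, adjusted p = 0.00469). Cd274 (PD-L1) was at 83.0 ± 36.8 CPM in the control and 1.51 ± 0.0649 in DN2a (-5.78 ± 0.56, adjusted p = 0.00017). The ligand called higher in DN1 was Pdcd1lg2 (PD-L2), at 12.6 ± 7.15 CPM against 1.05 ± 0.839 in the control (3.56 ± 0.81, adjusted p = 0.011, edgeR), while its means in DN2a and DN2b were 0.897 and 1.24 CPM. This DN1 call was not kept under every alternative. H2-Aa, an MHC class II chain and so a ligand of LAG3, was lower in DN1 (-5.66 ± 1.85, adjusted p = 0.0442, edgeR), with 146 ± 244 CPM in the control. That control mean rested mostly on 1 library, at 511 CPM, which held 11078 of the 13282 control counts. The number of ligands called lower was 4 in DN1 without either DN1 library and 5 without R1 or with D1 and D2 as the only controls. It was 4 in DN2a without DN2a rep 1, 5 without DN2a rep 2, 3 in DN2b without DN2b rep 1 and 5 without DN2b rep 2.

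Of 18 other costimulatory and inhibitory receptors, 17 had a row and 13 were tested (Vsir under its older name 4632428N05Rik), with 5 called higher and 2 lower at DN1, 5 and 2 at DN2a, 4 and 3 at DN2b. The shares over all genes were 14.3% and 17%, 21.2% and 24.3%, and 19.9% and 22.5%. Some alternatives called fewer of these receptors higher at DN1, and fewer or more of them lower at DN2b. Cd96, a receptor of the CD226 family, was at 0.256 ± 0.19 CPM in the control and 55.5 ± 6.15 in DN1 (7.82 ± 0.60, adjusted p = 9.52e-05, edgeR). Cd27, a TNF receptor family costimulator, was at 2.19 ± 0.782 CPM in the control and 105 ± 41.5 in DN1 (5.57 ± 0.35, adjusted p = 5.42e-05). Vsir, the inhibitory receptor VISTA, was at 536 ± 86.8 CPM in the control and 11.8 ± 12.1 in DN1 (-5.50 ± 1.14, adjusted p = 0.00742, edgeR). It was also lower than the control in DN2a and DN2b.

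Of 12 genes listed for the T cell receptor complex and its coreceptors, 8 had a row (Trac, Trbc1, Trbc2 and Trdc had none). Cd4, Cd8a and Cd8b1 did not pass the filter, with group means of at most 0.545, 0.663 and 0.0498 CPM, that of Cd8a being highest in the control. Of the 5 genes tested, 4 were called higher in DN1 than in the control and 5 in each DN2 stage, 3 in DN2a over DN1 and 4 in DN2b over DN1, with 0 lower in any of them. Over all genes, 14.3%, 21.2%, 19.9%, 0.196% and 1.01% were called higher in these 5 comparisons. Cd3e, Cd3g, Cd247 and Ptcra passed the filter only through DN libraries, so they were bound to stand above the control. Cd247 passed only through the DN2 libraries, so the same holds for it against DN1. These counts describe the genes tested and not the whole list. The DN2a over DN1 count was 0 without DN1 rep 1 or without any 1 of the DN2 libraries, 2 without any 1 control library and 1 with only those groups in the fit, and the DN2b over DN1 count was 2 with only those groups. With another filter on low counts, which let 7 of the genes be tested, 1 was called lower in DN2a and in DN2b than in the control. Cd3e was at 0 in all 4 control libraries, 1.63 ± 0.37 CPM at DN1, 18.5 ± 5.04 at DN2a and 103 ± 11.6 at DN2b, with a log2FC of 5.98 ± 0.42 from DN1 to DN2b (adjusted p = 0.0034, edgeR). Cd247, the zeta chain, went from 0.626 ± 0.11 CPM in DN1 to 56.5 ± 6.59 in DN2b (6.48 ± 0.70, adjusted p = 0.0034). In DN1, Cd3e was already called above the control (adjusted p = 0.000461), as was Cd3g, at 63.2 ± 46.4 CPM against 0.123 ± 0.0519 (8.94 ± 0.58, adjusted p = 5.63e-05).

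Of 24 adaptors and kinases that carry signals from these receptors, 23 were tested. Relative to the control, 7 were called higher and 2 lower at DN1, 10 higher and 7 lower at DN2a, and 9 higher and 6 lower at DN2b, where all genes gave 14.3% and 17%, 21.2% and 24.3%, and 19.9% and 22.5%. Over the alternatives, the number called lower ranged from 0 to 4 at DN1, from 1 to 7 at DN2a and from 1 to 7 at DN2b. It was 0 at DN1 without either DN1 library, either DN2a library, R1 or R2, and 1 without D1. It was 3 and 1 at DN2a without DN2a rep 1 and rep 2, and 1 and 2 at DN2b without DN2b rep 1 and rep 2. Lck, the kinase that CD28 and CD3 chains depend on, was at 1.24 ± 0.823 CPM without Notch ligand, and the DN1, DN2a and DN2b means were 54.7 ± 30.4, 366 ± 87.3 and 450 ± 221 CPM, with a log2FC over the control of 5.46 ± 0.58 in DN1 (adjusted p = 0.000465, edgeR) and 8.50 ± 0.64 in DN2b (adjusted p = 3.96e-05). Prkcq, a kinase downstream of CD28, was at 34.2 ± 5.17 CPM in DN1 against 0.789 ± 0.593 (5.47 ± 0.56, adjusted p = 0.000405). Traf1, an adaptor of 4-1BB, was at 3.52 ± 3.76 CPM in the control and lower in DN2a, with 1 count in both libraries together (adjusted p = 0.0141, edgeR). Themis and Sh2d2a were called higher in DN2b than in DN1, and Grap2, which binds CD28, rose from 7.3 ± 1.58 to 31.7 ± 3.16 CPM (adjusted p = 0.0288, edgeR). None of these calls in DN2b over DN1 was kept under every alternative.

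Genes induced when a mature T cell is activated were called about as often as all genes in the lower direction. Of 11 listed, 8 were tested, and edgeR called 0 higher than the control in any stage, with 1 lower in DN1 and 2 in each DN2 stage, beside 14.3%, 21.2% and 19.9% of all genes called higher and 17%, 24.3% and 22.5% called lower. DESeq2 also called 0 higher, and at an unadjusted p under 0.05 edgeR had 1 higher in DN1, 0 in DN2a and 1 in DN2b. Alternatives called 1 higher in DN1 (library size only, without D2 or without R2) and 2 higher and 0 lower in DN2b (without DN2b rep 1). Egr2 was at 8.16 ± 2.33 CPM in the control and held 5 counts in both DN1 libraries together (adjusted p = 0.00312, edgeR), and Tnf at 11.7 ± 8.02 in the control and 0.763 ± 0.608 in DN2b (-3.95 ± 0.99, adjusted p = 0.0117). Il2 and Ifng had at most 1 and 2 counts in any library.

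Of 16 transcription factors known to regulate these receptors in mature T cells, 11 were tested, with 5 called higher and 2 lower at DN1, 5 and 2 at DN2a, 5 and 1 at DN2b, all against the control, beside 14.3% and 17%, 21.2% and 24.3%, and 19.9% and 22.5% of all genes. The number called lower was 0 at DN1 without DN1 rep 1 and 1 without DN1 rep 2, 1 at DN2a without either DN2a library, and 0 at DN2b without DN2b rep 1, D1, R1 or R2. The number called higher at DN2b also moved over the alternatives, to fewer in some and to more in others. Tox, a factor known for its link to Pdcd1 and Lag3 in exhausted T cells, was at 0.0516 ± 0.0842 CPM without Notch ligand, and the DN1, DN2a and DN2b means were 5.2 ± 0.392, 18.7 ± 6.1 and 18.1 ± 4.3 CPM. Its log2FC over the control was 6.28 ± 0.77 in DN1 (adjusted p = 0.000845) and 8.08 ± 0.80 in DN2b (adjusted p = 0.000162, edgeR). Tcf7, the gene of TCF1, was at 1.04 ± 0.73 CPM in the control and 244 ± 8.6 in DN1 (7.87 ± 0.55, adjusted p = 6.91e-05, edgeR). Irf4 was at 3.48 ± 1.95 CPM in the control and held 2 counts in both DN1 libraries together (adjusted p = 0.0189, edgeR). Gata3 and Bcl11b were called higher in DN2b than in DN1, Bcl11b with 22.7 ± 4.58 against 1.78 ± 0.682 CPM (3.66 ± 0.60, adjusted p = 0.0205, edgeR). Neither call was kept under every alternative.

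The genes whose pattern over the 10 libraries was most like that of a receptor were found as the smallest root mean square difference of centred log2(CPM + 0.5), among tested genes with at least 5 CPM in their highest group. For Ctla4 this was Trat1, which encodes the T cell receptor associated protein TRIM, with a difference of 0.608 and means of 0.0147, 7.25, 62.8 and 98.3 CPM in control, DN1, DN2a and DN2b. For Tnfrsf9 it was Rasgrp1, a Ras activator downstream of the T cell receptor, at 0.872, and for Pdcd1 8430426J06Rik at 0.337 and Khdc1c at 0.423. Cd28 was most like Trib1 (0.596) and Sh3bp5 (0.603). Lag3 was most like Serpina3g (0.468) and Tsc22d1 (0.469), Cd160 like A730098P11Rik (0.366) and Psme2b (0.367), Icos like Zbtb8a (0.258) and Btla like Tep1 (0.324). The added 0.5 CPM compresses the patterns of low genes such as Icos and Btla, so that their nearest genes need not be near in fold change.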

How the data were processed

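Total RNA was sequenced from 10 mouse libraries. The authors aligned the start of the first read to mm10 with TopHat2 2.12, used HTSeq 0.6.1p1 (intersection-strict) to tally them, and the deposited values are raw counts for each gene symbol, not normalized. Cufflinks 2.2.1 is also named in the submitters' processing notes. The gene annotation and the strand setting of the counting are not given in the sources used here, so counts of overlapping genes are uncertain (Ctla4 with Rpl18-ps1, Icos with Gm37039, Tnfrsf9 with Camta1 and Cd160 with Pdzk1). Reads aligned to more than 1 place, between 16.4% and 30.1% of those tallied, were assigned to no gene.

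The 5 summary lines of each table were dropped. A gene was tested when 2 or more libraries reached 1 CPM (12221 genes), with edgeR 4.0.16 in R 4.3.3 (quasi-likelihood test, TMM normalization, prior count 0.125), as 1 model of all 10 libraries in 4 groups. Its p values were adjusted by Benjamini-Hochberg over those genes, with 6 pairwise comparisons, and SE were obtained from the F statistic (absolute log2FC over its root). CPM values use TMM-scaled totals over gene rows. Groups of 3 counts or fewer per library were taken as at the floor, and intervals of pooled ratios cover counting error only. Each DN group has 2 libraries, which per the study's methods derive from separate LSK isolates. Because 1 model covers all 10 libraries, p values of comparisons among the DN stages also draw on the spread of the control libraries. The p values measure only the spread between the libraries at hand. Named genes are all 10 receptors, their nearest protein-coding neighbours, the 2 genes most alike in pattern, and up to 3 called genes per list and comparison with the largest log2FC and at least 1 CPM in the higher group; the receptors and lists were chosen with earlier results of these data known, and a few further list members are named for context after their values were seen.

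The DN2a and DN2b libraries of a year share a label date, and their deviations from the stage means correlated across genes at r = 0.397. Those of DN1 correlated at 0.0717 with DN2a and 0.222 with DN2b. Alternatives were DESeq2 1.42.0, library size only, other filters, fewer groups, DN libraries alone with or without the year as a replicate block, part of the controls, each library left out, a prior count of 2, a log2FC of 2 without a p, and plain totals for CPM. Gene positions and exon lengths are from GENCODE vM21 (GRCm38), promoters and neighbours from RefSeq (GRCm38.p6). Summaries used pandas 2.3.3, numpy 2.4.6 and scipy 1.17.1 under Python 3.11.15, and figures used matplotlib 3.10.9.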

Additional observations from a re-analysis of the deposited data

Results flagged for a closer look

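The 4 control libraries were checked for the 8 receptors with more than 3 counts in at least 1 of them (not Ctla4 and Icos). For 2 receptors 1 library lay far from the others. Chance gives this in about 1 in 20 for each receptor checked, if the values are normally spread. Btla was 6.94 CPM (124 counts) in control library D1 against at most 1.98 CPM in the other 3. D1 also had the highest summed level of the 7 mature T cell markers with a row, 144 CPM, of which S1pr1 made up 140 CPM and Cd8b1 was at 0. Without D1, the log2FC of Btla against the control was -2.56 in DN1 (adjusted p = 0.0636), -4.80 in DN2a and -5.20 in DN2b. Tnfrsf9 was 4.84 CPM (105 counts) in control library D2 against at most 0.244 CPM in the other 3. D2 also had the highest control sums for natural killer and innate lymphoid markers (203 CPM, of which Nkg7 made up 185 CPM and Ncr1 was at 0) and dendritic cell markers (992 CPM). Without D2, the log2FC of Tnfrsf9 against the control was 0.37 in DN1, 6.56 in DN2a and 8.84 in DN2b. The part of these cell types was not tested.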

How the results depend on the processing

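Of 48 results (8 receptors in 6 comparisons), 30 kept their direction and their side of the threshold under every alternative that gave an adjusted p, and 44 kept their direction. DESeq2 gave no adjusted p for Tnfrsf9. With 1 library left out, the receptors called numbered 5 to 8 in DN2a over the control (5 without DN2a rep 1), 0 to 1 in DN2a over DN1 and 1 to 3 in DN2b over DN1. DN2a over DN1, with 1 receptor called, had 4 by DESeq2, 5 by a log2FC of 2 without a p, and 0 with only those groups, with the DN libraries and the replicate block, and with the DN libraries without the block. DN2b over DN1, with 2, had 4 by DESeq2, 1 with only those groups and 5 by a log2FC of 2. DN2b over DN2a had 1 by a log2FC of 2. Changes of direction occurred in results that were not called. Tnfrsf9 in DN1 over the control was 0.43 with R1 and R2 as the only controls and -4.59 to 0.37 with 1 library left out. Pdcd1 in DN1 over the control was -1.54 to 2.23, Btla in DN2b over DN2a -3.38 to 0.61 (0.048 without DN2a rep 2) and Lag3 in DN2b over DN2a -1.33 to 1.18 (-0.60 without DN2a rep 1) with 1 library left out, and Lag3 was -0.0084 with the year as the block. The cause was not tested. Among the 6 DN libraries alone, the replicate block changed no call of a receptor, and Tnfrsf9 in DN2b over DN1 was called with it (adjusted p = 0.0418, edgeR) and without it (0.0304).

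Over all genes, DESeq2 called 467 in DN2a over DN1 (edgeR 49), 820 in DN2b over DN1 (edgeR 233) and 29 in DN2b over DN2a (edgeR 0). Of those, 124 were higher and 343 lower in the first and 339 higher and 481 lower in the second, against 24 and 25 and 124 and 109 by edgeR. Scaling to library size alone shifted the median log2FC of all genes by 0.261 in DN1 over the control, -0.197 in DN2a over DN1 and -0.191 in DN2b over DN1, and turned the split in DN1 over the control from 1753 higher and 2081 lower to 2585 higher and 1625 lower. With plain totals, 38 of 40 group levels moved by less than 1 SD. Icos and Lag3 in DN1 moved to 1.6 and 24.5 CPM. At a floor of 3 counts, levels under 0.088 to 0.239 CPM could not be told from 0.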
